A study of Zea mays with 6 samples.

Results

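The psaA-psaB-rps14 operon of the maize plastid was followed in leaves of control and transgenic seedlings under drought. Its members are psaA (ZemaCp023), psaB (ZemaCp022) and rps14 (ZemaCp021), taken by their plastid gene IDs, and they make 3 of 33953 features in the deposited files. All 3 were present, and all 3 passed the filter on low values, a mean of at least 1 FPKM over the 6 libraries. The plants were of the inbred line KN5585, in 2 groups of 3 libraries, one with the genotype control and one with the genotype transgenic. Per the series title, the transgene serves the synthesis of a foreign polymer of glutamate, poly-γ-glutamic acid. Every plant of both groups had been without water for 5 days from the 3-leaf stage, until the soil held 9.8% water, so that the comparison asks how the genotypes differ under drought and says nothing of drought itself. The labels do not give the promoter of the transgene, the number of transformation events, whether the control carried a vector, or whether each library had its own plants. All p-values below therefore rest on the spread among these libraries alone, and that spread may be technical.

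In land plants these genes lie side by side and are co-transcribed, with psaA first, psaB second and rps14 last. psaA and psaB encode the core proteins of photosystem I. They pair to form the reaction centre that holds the chlorophyll pair P700 and the first electron carriers, and photosystem I cannot be built without them. rps14 encodes a protein of the small subunit of the plastid ribosome, so that the operon joins a light-driven complex to the machinery that translates it. In maize leaves, photosystem I is present in mesophyll cells and is prominent in bundle sheath cells, where cyclic electron flow supplies ATP.

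FPKM, the number of fragments scaled to gene length and library depth, summed to between 1208094 and 1238707 per library over all features. The depth of the libraries relative to control replicate 1, read from the steps between low values of the same gene, lay between 0.961 and 1.03, and the absolute depth is unknown. Plastid features, second copies included, held between 0.193% and 0.221% of FPKM in the control and between 0.496% and 0.570% in the transgenic libraries, all made with an mRNA kit, so their sum moved with the genotype. Not every plastid gene followed this sum, as 11 of the 66 tested plastid features fell. In these bulk leaf samples a different number of plastids or of cells of a type and a different amount of RNA per cell cannot be told apart. No plastid or mitochondrial feature carried the name of the leaf marker rbcL, so the plastid sums hold no value under that name. psbA of photosystem II had a mean of 159.7 FPKM in control and 1.30 FPKM in transgenic leaves. Nuclear markers could not be looked up because 0 of the nuclear IDs matched the reference gene table.

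The whole operon was higher in transgenic leaves, and the measured rises were unequal. The rise was largest for rps14, the last gene, smaller for psaA, the first, and smallest for psaB, which lies between them. All 3 passed the test (limma on log2(FPKM + 1), Benjamini-Hochberg adjusted over 22200 tested features), in a comparison in which 73.0% of tested features passed in either direction, 27.0% as higher and 45.9% as lower. Of the 66 tested plastid features, second copies counted once, 41 rose and 11 fell. A call alone therefore sets the operon little apart, and the sizes of its changes are given beside those of all tested features. With all 6 libraries and no pseudocount, only rps14 relative to psaB differed past the threshold, a call that depended on the setting.

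The core gene psaA was at 4.39, 3.58 and 4.62 FPKM in control replicates 1 to 3. In transgenic replicates 1 to 3 it was at 41.75, 43.43 and 33.93 FPKM. The lowest transgenic library was thus far above the highest control library, a separation seen upward in 28.0% and in either direction in 75.3% of tested features. Within each group the libraries lay close together, with a coefficient of variation of 13.0% in control and 12.8% in transgenic leaves. Mean FPKM went from 4.20 ± 0.546 to 39.7 ± 5.07 (SD, n = 3 per group), a ratio of 9.46. On the log2(FPKM + 1) scale psaA rose by 2.97 (SE 0.14; limma, adjusted p = 1.46e-07), and 765 of the 22200 tested features had a larger rise.

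Its partner psaB was the lowest member in every library. It was at 1.33, 0.80 and 0.90 FPKM in control replicates 1 to 3 and at 5.30, 6.84 and 4.73 FPKM in transgenic replicates 1 to 3. Here too the groups did not overlap, although among the controls psaB was highest in replicate 1 and psaA in replicate 3. Mean FPKM went from 1.01 ± 0.282 to 5.62 ± 1.09 (SD, n = 3 per group), a ratio of 5.57. The fitted rise of psaB was 1.72 (SE 0.20; limma, adjusted p = 6.29e-05), and 2141 tested features rose more. Because psaB is near the pseudocount of 1 in control leaves, this scale understates its change, and the log2 ratio of its mean FPKM without a pseudocount was 2.48, against 3.24 for psaA.

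The ribosomal protein gene rps14 was the highest member in every library. Control replicates 1 to 3 gave 11.93, 13.91 and 23.89 FPKM and transgenic replicates 1 to 3 gave 297.62, 290.24 and 228.17 FPKM. Control replicate 3 stood above the other controls, so that rps14 had the widest relative spread of the operon in control leaves, with a coefficient of variation of 38.7% against 14.0% in transgenic leaves. Mean FPKM went from 16.6 ± 6.41 to 272 ± 38.1 (SD, n = 3 per group), a ratio of 16.4. The rise of 4.01 (SE 0.22; limma, adjusted p = 3.90e-07) ranked 2 among the 66 tested plastid features, behind atpE alone, while psaA ranked 3 and psaB ranked 24. These ranks depend on the pseudocount of 1, and atpE was at 1.45, 0 and 1.08 FPKM in control replicates 1 to 3. With a pseudocount of 5, rps14 rose by 3.71 and atpE by 3.28. There psaA at 2.28 was below atpF at 2.74, rpl14 at 2.44, rps4 at 2.31 and rps3 at 2.30. With 0.1, psaI at 3.53 was above psaA at 3.21. On the log2(FPKM + 1) scale, the median log2 fold change was -0.31 over all tested features and 1.07 over the tested plastid features, and psaA, psaB and rps14 were above the plastid median by 1.90, 0.65 and 2.94.

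**Figure D1:**
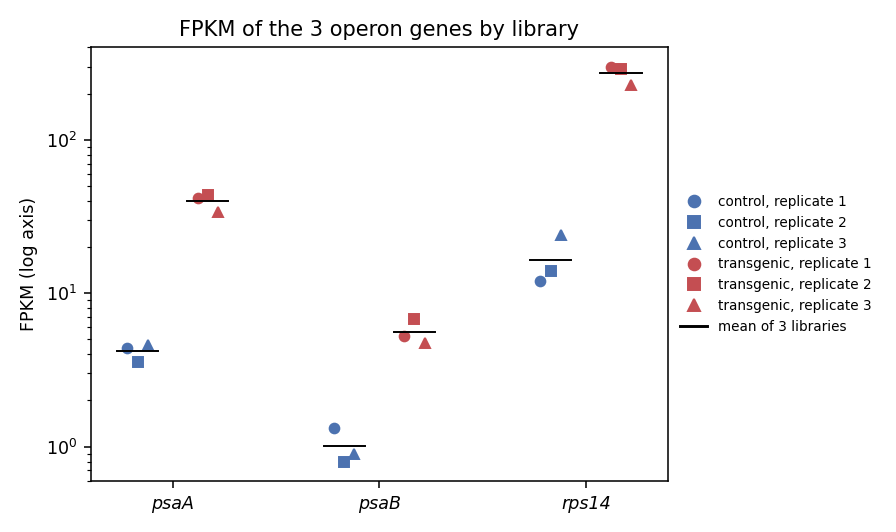
FPKM (log axis) of psaA, psaB and rps14 in each of the 6 libraries, with blue marks for control, red marks for transgenic and a bar for the mean of 3 libraries. In every library rps14 is above psaA and psaA above psaB, and for each gene all transgenic libraries are above all control libraries, as for rps14 with 228.17 FPKM or more against 23.89 FPKM or less.

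The order of levels was the same in all 6 libraries, with rps14 above psaA and psaA above psaB, and it did not follow the order of the genes along the operon. The ranges of the 3 genes did not overlap within either group. These levels are per length of gene. Among the 86 plastid features counted once, rps14 was between place 18 and place 27 by FPKM in the control libraries and at place 9 in each transgenic library. psaA went from places 42 to 48 up to places 24 and 25, and psaB from places 64 to 66 up to places 48 to 50. As all 3 moved up, they gained on other plastid genes as well as on their own control level. Transgenic replicate 3 was the lowest transgenic library for each member.

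Ratios within a library do not depend on how libraries are scaled to each other. FPKM of psaA was 3.30, 4.48 and 5.13 times that of psaB in control replicates 1 to 3. In transgenic replicates 1 to 3 it was 7.88, 6.35 and 7.17 times that of psaB. All transgenic ratios were above all control ratios, and the mean ratio went from 4.30 ± 0.928 to 7.13 ± 0.765 (SD, n = 3 per group). rps14 was at 2.72, 3.89 and 5.17 times psaA in control replicates 1 to 3 and at 7.13, 6.68 and 6.72 times psaA in transgenic replicates 1 to 3. The transgenic libraries were nearly alike in this ratio while the controls were spread widely, with means of 3.92 ± 1.23 and 6.85 ± 0.246. Against psaB, rps14 was at 8.97, 17.4 and 26.5 times in the control and at 56.2, 42.4 and 48.2 times in the transgenic libraries, again with no overlap. How many other gene ratios separated the groups was not counted, so the lack of overlap is not shown to be particular to these pairs. The 75.3% of tested features that separated in either direction is for FPKM levels, not for ratios. Control replicate 1 was the lowest library in all 3 ratios.

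**Figure D2:**
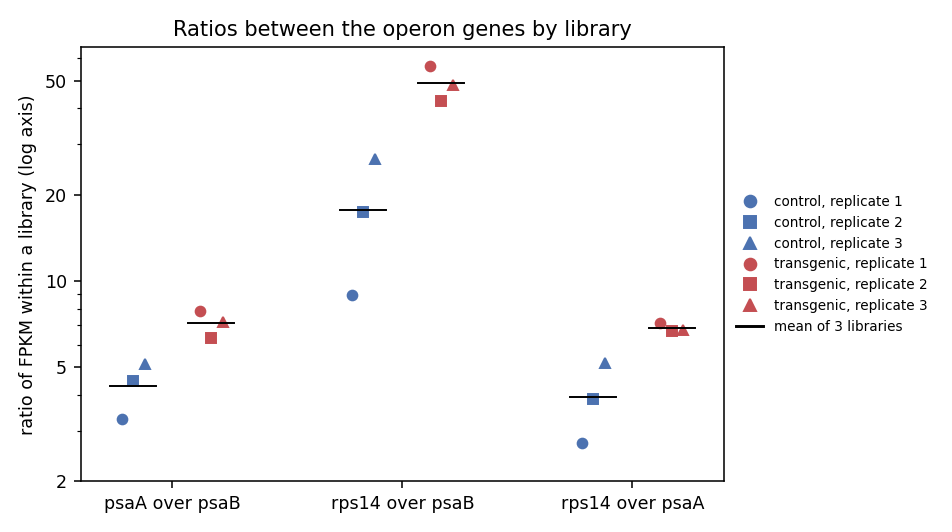
Ratio of FPKM between pairs of operon genes within each library (log axis), with blue marks for control, red marks for transgenic and a bar for the mean of 3 libraries. For each pair the transgenic libraries lie above the control libraries, and for rps14 over psaA the transgenic marks fall between 6.68 and 7.13.

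As log2 values without a pseudocount, the ratio of psaA to psaB was higher in transgenic leaves by 0.75, that of rps14 to psaA by 0.85 and that of rps14 to psaB by 1.60, which correspond to 1.68-fold, 1.80-fold and 3.03-fold. In an exact permutation test over the libraries, two-sided, each of the 3 ratios gave p = 0.1 (adjusted p = 0.1 over the 3 ratios), which is the smallest p that 3 against 3 libraries allow, so this test could not pass the threshold of 0.05. A fit over the log2 ratios of all neighbouring plastid genes was added after the data had been seen. It covered 53 pairs, of which 52 were neighbours and 1 was rps14 with psaA, and 37.7% of them passed. In this fit the change of rps14 relative to psaB passed (SE 0.43; limma, adjusted p = 0.0283), and those of psaA relative to psaB (SE 0.25) and of rps14 relative to psaA (SE 0.29) did not (limma, adjusted p = 0.0513 for each). The call for rps14 over psaB was lost without control replicate 2 (limma, adjusted p = 0.0501), without transgenic replicate 1, 2 or 3 (limma, adjusted p = 0.107, 0.0797 and 0.104) and with the replicate number as a block (limma, adjusted p = 0.0666). The other pairs passed without control replicate 3 (limma, adjusted p = 0.0388 for psaA over psaB and 0.0234 for rps14 over psaA). With a pseudocount of 1, which compresses psaB most, all 3 pairs passed (limma, adjusted p = 0.00266 for psaA over psaB, 0.00213 for rps14 over psaB and 0.0175 for rps14 over psaA), as did 30 of the 53 pairs in all. Neighbouring plastid genes changed in ratio in many places of the plastid genome, as in petD over rpoA by -4.05, a pair singled out after its value was seen.

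The operon also took a larger part of plastid FPKM. Its 3 genes together held 0.728%, 0.853% and 1.33% of plastid FPKM, second copies counted once, in control replicates 1 to 3. They held 5.45%, 5.35% and 4.78% in transgenic replicates 1 to 3. Most of this was rps14, with a mean share of 0.740 ± 0.303% in control and 4.45 ± 0.324% in transgenic leaves (SD, n = 3 per group). psaA went from 0.186 ± 0.0211% to 0.650 ± 0.0381% and psaB from 0.0443 ± 0.00934% to 0.0920 ± 0.0133%. The groups did not overlap for any of the 3 shares, and the log2 differences were 2.66 for rps14, 1.81 for psaA and 1.07 for psaB (exact permutation test, two-sided, p = 0.1 each, the smallest possible, and adjusted p = 0.1 over the 3 shares). How many other plastid genes separated the groups in their share was not counted, so this separation does not set the operon apart. With each library scaled to the FPKM of all plastid features outside the operon, rps14 rose by 2.68, psaA by 1.75 and psaB by 0.81 (limma, adjusted p = 5.56e-06, 1.69e-06 and 0.00575). Under that scaling 20 of the 66 tested plastid features were higher and 24 were lower, so the rise of the operon was larger than that of the plastid features as a sum. A difference between the groups in how the mRNA kit captured single plastid transcripts was not tested.

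The genes next to the operon rose too, apart from one. Of the 3 named protein genes on either side in the reference gene order, atpA was not among the features. Of the other 5, 4 rose, 0 fell and atpH did not pass. Their median log2 fold change was 2.04, against -0.31 for all tested features and 1.07 for tested plastid features. The count of 4 in 5 is close to the 41 in 66 of the plastid at large. On the psaA side lies ycf3 (ZemaCp024), which encodes an assembly factor of photosystem I. It was at 20.70, 12.42 and 14.09 FPKM in control replicates 1 to 3 and at 65.32, 69.19 and 64.61 FPKM in transgenic replicates 1 to 3, a rise of 2.04 (SE 0.17; limma, adjusted p = 4.71e-06). The groups were well apart, and in the fit over neighbouring pairs psaA gained on ycf3 by 1.13 (SE 0.25; limma, adjusted p = 0.0188). That fit was added after the data had been seen, and 37.7% of its pairs passed. Whether the call for psaA over ycf3 holds in other settings was not examined. Next follows rps4 (ZemaCp026), for another protein of the small ribosomal subunit, which rose by 2.63, and then ndhJ (ZemaCp027), for a subunit of the NDH complex of cyclic electron flow, which rose by 0.72. The rise of ndhJ turned to -0.63 (limma, adjusted p = 5.20e-05) with the libraries scaled to plastid FPKM outside the operon, while rps4 still rose under that scaling, by 1.32.

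On the rps14 side, atpF and atpH encode subunits of the membrane part of the plastid ATP synthase. atpF (ZemaCp019) was at 83.35, 66.00 and 77.83 FPKM in control replicates 1 to 3 and at 573.64, 568.56 and 464.87 FPKM in transgenic replicates 1 to 3. It rose by 2.81 (SE 0.11; limma, adjusted p = 3.54e-08), a size between those of psaA and psaB. atpH (ZemaCp018) was at 1.60, 5.46 and 3.11 FPKM in the control and at 5.64, 10.53 and 4.13 FPKM in the transgenic libraries, with overlapping groups and a log2 fold change of 0.84 that did not pass (limma, adjusted p = 0.0753). It passed as higher with median-of-ratios scaling (1.14; limma, adjusted p = 0.0235) and quantile normalization (1.03; limma, adjusted p = 0.0365), and also when control replicate 2 or transgenic replicate 3 was left out (limma, adjusted p = 0.02 and 0.0477), so that all 5 neighbours rose in those settings. With libraries scaled to plastid FPKM outside the operon it stood at -0.27 and did not pass (limma, adjusted p = 0.544).

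**Figure D3:**
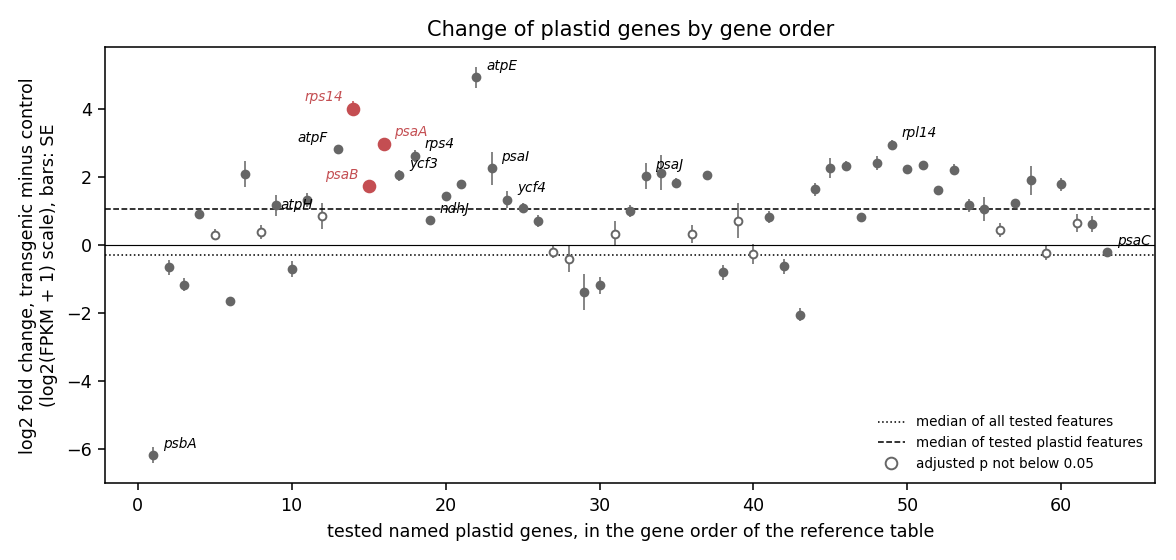
Difference of mean log2(FPKM + 1) between transgenic and control leaves, with its SE, for 63 tested named plastid genes in the order of the reference gene table, with the operon in red, open circles for genes that did not pass, and lines at the medians of all tested features (-0.31) and of tested plastid features (1.07). The points of rps14 at 4.01, psaB at 1.72 and psaA at 2.97 form a dip in the middle of the operon, on a scale that understates the change of psaB.

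The other plastid genes of photosystem I did not all follow psaA and psaB. Of the 5 genes of the complex, 4 rose and 1 fell, with a median log2 fold change of 2.02, beside 41 higher and 11 lower among the 66 tested plastid features. Of the 4 that rose, 2 are members of the operon itself. psaJ (ZemaCp043), for a small membrane subunit, was at 7.25, 4.36 and 16.91 FPKM in the control and at 46.02, 36.77 and 28.47 FPKM in the transgenic libraries. It rose by 2.02 (SE 0.39; limma, adjusted p = 0.00129), with wide spread in both groups. psaI (ZemaCp033), for another small subunit, was listed at 0 in control replicate 3 and was at 2.70 and 1.80 FPKM in control replicates 1 and 2, and at 11.24, 13.04 and 5.44 FPKM in transgenic replicates 1 to 3. It rose by 2.25 (SE 0.48; limma, adjusted p = 0.00258). Both calls were lost when libraries were scaled to plastid FPKM outside the operon (limma, adjusted p = 0.105 for psaJ and 0.0539 for psaI), under which psaA and psaB kept theirs.

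psaC (ZemaCp087), which encodes the subunit with the terminal iron-sulphur clusters and lies elsewhere in the plastid genome, had the highest level of the 5 in every library. It was at 69.48, 82.15 and 69.67 FPKM in control replicates 1 to 3 and at 64.62, 61.62 and 62.52 FPKM in transgenic replicates 1 to 3. The groups lay close together without overlap, and the change of -0.22 (SE 0.09) passed narrowly (limma, adjusted p = 0.0412). The direction was not stable, as it turned to 0.16 with median-of-ratios scaling and to 0.015 with quantile normalization, neither of which passed (limma, adjusted p = 0.13 and 0.882). The call was also lost without control replicate 2 (limma, adjusted p = 0.122) and without transgenic replicate 1, 2 or 3 (limma, adjusted p = 0.0671, 0.112 and 0.0842). With libraries scaled to plastid FPKM outside the operon psaC fell by 1.57 (limma, adjusted p = 2.04e-06), so that its change depends on what it is measured against. The mean of psaA was 4.20 FPKM beside 73.8 FPKM for psaC in control leaves and 39.7 beside 62.9 FPKM in transgenic leaves.

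Both assembly genes of photosystem I rose, as did 41 of the 66 tested plastid features. Besides ycf3, ycf4 (ZemaCp034), which encodes a scaffold for the assembly of the complex, went from 13.64, 14.70 and 6.55 FPKM in control to 29.84, 30.88 and 26.67 FPKM in transgenic replicates 1 to 3. Its rise of 1.32 (SE 0.25; limma, adjusted p = 0.00128) was smaller than that of psaB and near the plastid median of 1.07. When libraries were scaled to plastid FPKM outside the operon it had a value of 0.04 and did not pass (limma, adjusted p = 0.898).

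**Figure D4:**
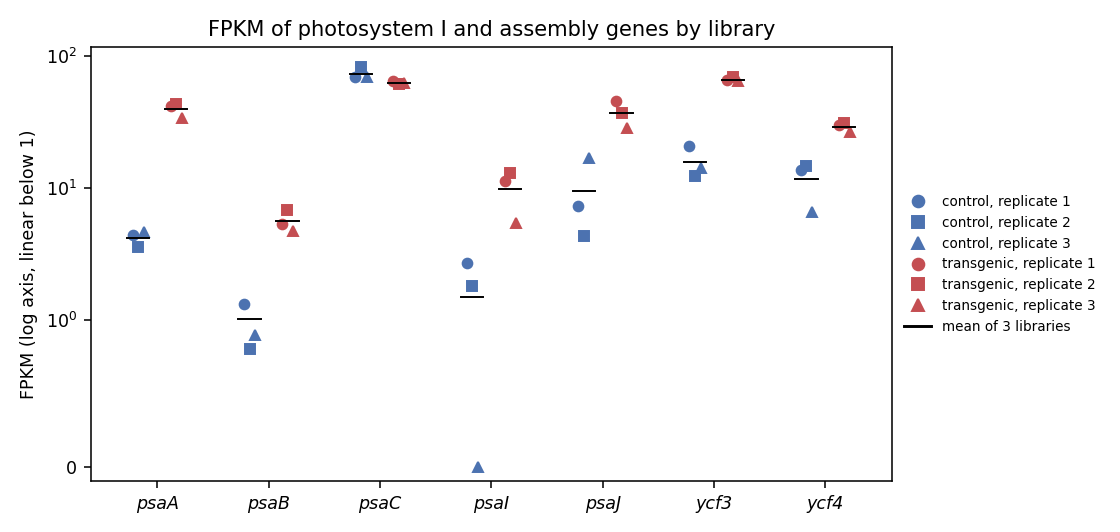
FPKM (log axis, linear below 1) of the 5 plastid genes of photosystem I and of the assembly genes ycf3 and ycf4 in each library, with blue marks for control, red marks for transgenic and a bar for the mean of 3 libraries. psaC stays between 61.62 and 82.15 FPKM in all libraries, whereas each of the other genes has its transgenic libraries above its control libraries.

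Most genes of plastid ribosomal proteins rose, as rps14 did. Of 19 tested genes, rps14 included, 17 rose, rps16 fell and rpl20 did not pass. These 17 are part of the 41 in 66 plastid features that rose, and no test compared the list with other plastid genes. The median log2 fold change of the 19 genes was 2.12, against 1.07 for tested plastid features, and the rise of rps14 was the largest of them. The lowest adjusted p among those that rose belonged to rpl14 (ZemaCp059) of the large subunit, which rose by 2.94 (limma, adjusted p = 9.49e-08), rps3 (ZemaCp061) of the small subunit, by 2.35, and rps14 itself. rps16 (ZemaCp004) was at 29.38, 24.89 and 27.95 FPKM in control and at 13.86, 13.47 and 8.23 FPKM in transgenic replicates 1 to 3, so that it moved against rps14 although both proteins belong to the small subunit. Of rpl20, named after its values were seen, the change was 0.31 (limma, adjusted p = 0.326), which turned to -0.77 with libraries scaled to plastid FPKM outside the operon (limma, adjusted p = 0.0292). Under that scaling 12 of the 19 ribosomal protein genes were higher, 2 were lower and 5 did not pass. The plastid-encoded RNA polymerase transcribes psaA in plants. Of its 4 subunit genes, rpoB and rpoC2 did not reach the minimum FPKM, and rpoC2 was listed at 0 in all libraries. rpoA (ZemaCp054) rose by 1.63 (limma, adjusted p = 6.77e-05), a call lost with libraries scaled to plastid FPKM outside the operon (0.45; limma, adjusted p = 0.103). rpoC1 (ZemaCp014) fell by 0.72 (limma, adjusted p = 0.0207), a call lost without transgenic replicate 2 (limma, adjusted p = 0.0812).

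Likeness to each member was measured as the SD over the 6 libraries of the log2(FPKM + 1) ratio to that member, among the other 65 tested plastid features, as a description. All points share the same libraries and the 2 genotypes, so that a low SD mostly reflects a change of the same size. The genes most like psaA were rpl14 with an SD of 0.10, atpF with 0.10 and rps4 with 0.32, where the median over plastid genes was 1.13. rpl14, which lies in a ribosomal protein cluster away from the operon, was at 7.40, 5.61 and 7.96 FPKM in control replicates 1 to 3 and at 59.28, 62.89 and 57.15 FPKM in transgenic replicates 1 to 3, so that it was above psaA by a similar factor in both groups. Its operon partners came later, rps14 at place 13 with an SD of 0.64 and psaB at place 16 with 0.70. Nearest to psaB were rps18, for a small-subunit ribosomal protein, with an SD of 0.11, ndhC, for an NDH subunit, with 0.13, and rpl22, for a large-subunit ribosomal protein, with 0.16. rps18 (ZemaCp045) was at 5.91, 5.22 and 5.06 FPKM in the control and at 19.18, 25.93 and 20.12 FPKM in the transgenic libraries and, like psaB, was highest in control replicate 1 and transgenic replicate 2. By contrast, psaA stood at place 38 and rps14 at place 55 for this gene. The genes most like rps14 were psaA with an SD of 0.64, rpl14 with 0.65 and atpE, for the epsilon subunit of the ATP synthase, with 0.72, so no plastid gene tracked rps14 as closely as rpl14 tracked psaA. psaB, its direct neighbour, stood at place 19 with an SD of 1.32. Because psaB is near the pseudocount in control leaves, its SDs depend on that choice. On this scale, genes outside the operon were thus nearer to psaA and psaB than these were to each other.

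None of the mitochondrial features in the files, 0 of 147, carries the name of one of the 3 genes, plastid-derived copies included. psaA and psaB are related genes, and how the authors counted reads that match more than one place, or which strand was used, is not given in the sources used here.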

How the data were processed

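RNA sequencing of leaves gave 1 file per library, 3 control and 3 transgenic, from 1.3 µg of total RNA and a SMARTER mRNA kit per the labels' protocols. The authors deposited FPKM, rounded to 2 decimals, per the file headers. No source used here names the aligner, the counting method or the annotation. The builds GRCm38 and mm10, listed in the submitters' processing notes, are mouse builds, so no coordinates are given. The 104 plastid features are, by definition, the IDs that matched a plastid locus tag of the reference gene table (Zm-B73-REFERENCE-NAM-5.0). That table also gave symbols and gene order. Sequences are not printed.

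The filter was a mean of 1 FPKM or more. The 22200 features that passed it (11753 did not) were compared on log2(FPKM + 1) with limma 3.58.1 in R 4.3.3 (lmFit, eBayes with trend; two-sided, Benjamini-Hochberg, threshold 0.05), after a check on simulated data. Ratios and shares used exact permutation over libraries (scipy 1.17.1). A planned limma test of each feature relative to 1 reference gene gives values only, because all features then share that gene's error. Counts and their depth were not analysed, so no counting intervals are given. Members, lists and naming rule were chosen with earlier results of these data known. Named were the members, photosystem I and assembly genes, neighbours, the 3 ribosomal protein and RNA polymerase genes with the lowest p in each direction, and the 3 plastid genes most like each member. Libraries with the same number did not deviate together (correlations 0.006, -0.001 and 0.015). Alternatives covered pseudocounts, filters, scalings, the variance trend, a replicate block and leaving out each library.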

Additional observations from a re-analysis of the deposited data

How the results depend on the processing

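The rises of psaA, psaB and rps14 kept their direction and stayed past the threshold in each of 16, 15 and 16 alternatives, with log2 fold changes of 1.75 to 3.31, 0.81 to 2.38 and 2.68 to 4.38; psaB had no value at a minimum mean of 5 FPKM, which it does not reach. With the replicate block their values were 2.97, 1.72 and 4.01, and among the other genes run (those named from the lists, the neighbours, atpE and ndhC) the block changed the calls of psaC (limma, adjusted p = 0.0586) and atpH (limma, adjusted p = 0.0164); the numbers were not taken as pairs. Leaving out 1 library gave 2.88 to 3.07 for psaA, 1.59 to 1.83 for psaB and 3.81 to 4.29 for rps14. Scaling to plastid FPKM outside the operon, which raises the control libraries relative to the transgenic ones, gave 2229 higher and 17354 lower features, 2 higher photosystem I genes, 1 higher assembly gene, 2 lower ribosomal protein genes, 0 higher RNA polymerase genes and 1 lower neighbour (ndhJ, -0.63), and atpH turned to -0.27 without passing; rpl20, one of the lower ribosomal protein genes there, turned to -0.77. The single lower photosystem I gene, psaC, was no longer counted, giving 0, with median-of-ratios scaling (0.16), quantile normalization (0.015), eBayes without trend or the replicate block, and leaving out 1 library gave 0 to 1. The single lower RNA polymerase gene, rpoC1, gave 0 with a minimum mean of 5 FPKM, median-of-ratios scaling or a total of 1000000, where it fell below the filter, and leaving out 1 library gave 0 to 1. Differences between members on the log2(FPKM + 1) scale grew with the pseudocount, which compresses the lower gene of a pair more. Relative to psaB, psaA had 1.25 with a pseudocount of 1, 0.83 with 0.1 and 1.46 with 5, and rps14 had 2.29, 1.71 and 2.89. Relative to psaA, rps14 had 1.04 with 1, 0.87 with 0.1 and 1.44 with 5. With no pseudocount, rps14 over psaB was higher by 1.60 and passed in the added limma fit over neighbouring pairs and not in the exact test. For the ratios the replicate block left 0.75, 0.85 and 1.60 unchanged, with an exact sign-flip p of 0.25 each, the smallest that 3 pairs allow, and leaving out 1 library gave 0.57 to 0.89 for psaA over psaB, 0.61 to 1.07 for rps14 over psaA and 1.18 to 1.96 for rps14 over psaB. Unknown absolute depth limits what can be said of psaB at about 1 FPKM in control leaves.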
